A study of Mus musculus with 4 samples.

Results

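The matrix metalloproteinases (MMPs), their tissue inhibitors (TIMPs) and the related protease Adam8 were followed in peritoneal macrophages exposed to tumor-conditioned medium. The members were 10 rows of the deposited count table, taken by gene name: Mmp8, Mmp9, Mmp12, Mmp13, Mmp14, Mmp19, Timp1, Timp2, Timp3 and Adam8, out of 54532 entries. All 10 passed the filter on low counts, which kept the 13715 genes that reached 10 reads in 1 library or more. The cells were labelled wild-type (WT) macrophages from peritoneal fluid, and the study's methods describe peritoneal macrophages of young adult BALB/c mice elicited with thioglycollate broth. They were kept in normal medium (0% 4T1) or in medium with 30% 4T1-CM, the filtered supernatant of 4T1 cells, a mouse mammary carcinoma line. Either DMSO or 10 µM CH223191, which blocks the aryl hydrocarbon receptor (AHR), was added to both media. The labels give neither the time in medium nor the number of mice per culture. Each of the 4 conditions has 1 library, and a difference between conditions is therefore a difference between single libraries.

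MMPs are zinc-dependent endopeptidases that cleave collagens, elastin, gelatin and other proteins of the extracellular matrix, as well as cytokines and cell surface proteins. Most are secreted as inactive precursors, while the membrane-type MMPs stay anchored to the cell surface. TIMPs bind the active enzymes in a tight complex of equal parts and block the catalytic zinc. Macrophages are a known source of MMPs in inflamed tissue and in tumors, where matrix cleavage is part of tissue remodeling. The comparison of 4T1-CM with normal medium asks which of these genes differ with tumor-derived factors, and that of CH223191 with DMSO asks which differ when AHR is blocked.

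The libraries held between 15535405 and 17557127 counted reads, and 17395 to 18665 genes had at least 1 read. Levels are given as reads or as CPM, the read count over the library size after TMM scaling with edgeR, and the order of the members' levels is given as CPM per kilobase of exon, while sums and shares in CPM or reads are not corrected for length. Intervals are exact 95% intervals for counting error and do not cover the spread between cultures. A difference is a log2 ratio of 2 libraries, and a gene counted as changed at a ratio of at least 2-fold. The macrophage markers Adgre1, Itgam, Csf1r, Cd68, Lyz2, Mertk, Fcgr1, Cd14 and Ptprc each had at least 16.0 CPM in every library, and their summed level was 14734 and 18862 CPM in normal medium and 41064 and 43872 CPM in 4T1-CM. Most of this sum was Lyz2, with 11897, 15196, 32981 and 35597 CPM. Of these 9 genes, 5 were at least 2-fold higher in 4T1-CM with DMSO (11.8% of all genes) and 4 with CH223191 (11.6%), while Ptprc had log2 ratios to normal medium of -0.13 and 0.17 and Mertk of 0.41 and 0.38. In these bulk libraries, more cells of a type and more RNA per cell cannot be told apart. Cyp1b1, a target gene of AHR, had 65 (DMSO) and 19 (CH223191) reads in normal medium and 361 and 171 in 4T1-CM, while Cyp1a1, another target, had 0 reads in each library. Of the other AHR targets, the log2 ratio of CH223191 to DMSO without and with 4T1-CM was 0.14 and -0.09 for Tiparp, -0.36 and -0.01 for Ahrr, and -0.62 and -0.97 for Nqo1. Of the 5 targets, 4 passed the filter, and 1 of these, Cyp1b1 without 4T1-CM, was at least 2-fold lower with CH223191, where 2.64% of all genes were.

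For all 10 members, which are protein-coding, the deposited positions matched GENCODE M21 (build GRCm38). Mmp13 (ENSMUSG00000050578, chr9:7272514-7283331), Mmp12 (ENSMUSG00000049723, chr9:7344381-7369499) and Mmp8 (ENSMUSG00000005800, chr9:7558456-7568485) lie on the plus strand of chromosome 9 within a cluster of MMP genes. Mmp9 (ENSMUSG00000017737) lies at chr2:164940780-164955850, Mmp14 (ENSMUSG00000000957) at chr14:54431612-54445364 and Mmp19 (ENSMUSG00000025355) at chr10:128790910-128800824, each on the plus strand. Timp1 (ENSMUSG00000001131) lies at chrX:20870166-20874735 and Timp3 (ENSMUSG00000020044) at chr10:86300372-86349506 on the plus strand, and Timp2 (ENSMUSG00000017466) at chr11:118301069-118355740 and Adam8 (ENSMUSG00000025473) at chr7:139978932-139992562 on the minus strand. Timp1 and Timp3 are nested on the strand opposite to the synapsin genes Syn1 and Syn3. Whether the counting used strand is not given in the sources used here. Syn3 had at most 3 reads in any library, whereas Syn1 had 141, 142, 244 and 198 reads. Every list of 4 values gives normal medium first and 4T1-CM second, and within each medium DMSO before CH223191. Of the 50-base words of the members' transcripts, 24.7% were shared with another gene for Mmp19, by its antisense neighbours Tmem198b and Gm47093, and 21.4% for Timp3. The share was at most 2.53% for the other members. Tmem198b had 195, 185, 171 and 190 reads and Gm47093 had 0. Cep295nl, within Timp2 on the same strand, had at most 35 reads and Gm16201, which overlaps the end of Adam8, at most 45.

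The 250 bases before the RefSeq start are shown for Mmp8, Mmp14 and Timp1, the members with the widest range of levels over the 4 libraries, and for Mmp13, another collagenase gene of the cluster. They are RefSeq sequences of GRCm38.p6, which represents the C57BL/6J strain, written 5′ to 3′ on the strand of the gene. All 4 genes are on the plus strand, and the windows are chr9:7558179-7558428, chr14:54431348-54431597, chrX:20869916-20870165 and chr9:7272264-7272513. Capitals mark the motif TGACTCA of AP-1, a transcription factor known to act on MMP promoters, or GCGTG, the core of the element bound by AHR, on either strand, and the windows of Mmp8 and Mmp14 hold neither.
Mmp8: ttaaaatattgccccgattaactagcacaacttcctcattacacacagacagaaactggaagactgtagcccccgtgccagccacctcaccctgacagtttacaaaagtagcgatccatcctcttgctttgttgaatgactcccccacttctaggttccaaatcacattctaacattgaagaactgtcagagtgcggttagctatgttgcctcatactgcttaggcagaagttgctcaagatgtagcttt
Mmp14: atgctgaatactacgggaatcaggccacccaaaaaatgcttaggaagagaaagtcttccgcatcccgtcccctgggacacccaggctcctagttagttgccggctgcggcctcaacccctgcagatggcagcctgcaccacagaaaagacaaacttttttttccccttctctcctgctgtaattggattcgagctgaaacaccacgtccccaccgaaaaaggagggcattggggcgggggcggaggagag
Timp1: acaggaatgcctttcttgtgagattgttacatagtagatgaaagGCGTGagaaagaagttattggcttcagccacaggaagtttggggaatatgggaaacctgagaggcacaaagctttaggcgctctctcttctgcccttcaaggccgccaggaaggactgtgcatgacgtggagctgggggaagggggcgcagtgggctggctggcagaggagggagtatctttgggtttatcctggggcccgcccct
Mmp13: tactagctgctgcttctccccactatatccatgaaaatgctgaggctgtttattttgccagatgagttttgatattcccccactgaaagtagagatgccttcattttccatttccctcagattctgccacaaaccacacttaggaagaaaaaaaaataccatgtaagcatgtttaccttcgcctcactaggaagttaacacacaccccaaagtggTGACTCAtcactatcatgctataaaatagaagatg

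RefSeq windows were matched for 8 of the 10 members, as 9 windows, since Mmp12 has a second start. Mmp9 and Mmp19 were not matched. TGACTCA was found in 2 of the 9 windows, that of Mmp13, from 35 to 29 bases before the start, and that at the second start of Mmp12, against 4.46% of all 32851 windows. GCGTG was found in 3 of the 9, those of Timp1 (206 to 202 bases before the start), Timp2 and Timp3, against 28.2% of all windows. TTCNNNGAA, a motif of STAT factors, and a motif of NF-kB, GGG and TTTCC with 2 bases of any kind between them, were found in 0 of the 9 windows, against 7.02% and 1.41% of all windows. Each motif was searched on both strands, and TTCNNNGAA reads the same on both. A match describes the letters of a window and is not a measured binding site.

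**Figure D1:**
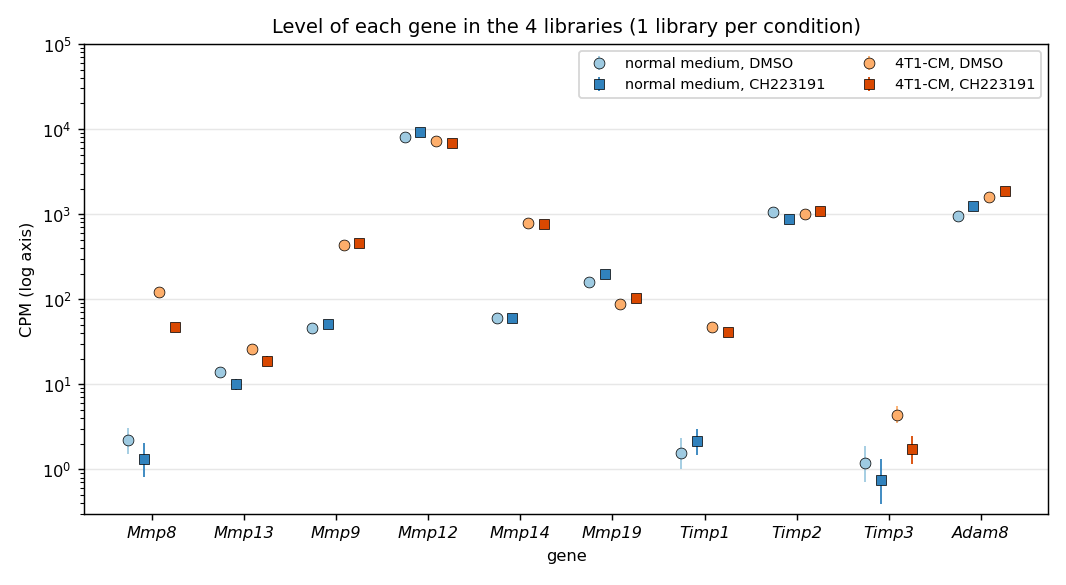
Level of each of the 10 genes in the 4 libraries, in CPM on a log axis. Points are single libraries and bars are exact 95% Poisson intervals, which cover counting error only. Mmp12 lies between 6784 and 9304 CPM in the 4 libraries, while Mmp8 and Timp1 lie at 1.32 to 2.20 CPM without 4T1-CM and at 41.0 to 122 CPM with it.

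Both libraries with 4T1-CM held more Mmp8, Mmp9, Mmp14, Timp1 and Timp3 than those with normal medium, by at least 2-fold in each comparison. These 5 of the 10 members were counted as higher with DMSO, where 11.8% of the 13715 genes were at least 2-fold higher, and the 5 also with CH223191, where 11.6% were. Requiring 2-fold in both comparisons, which share no library, 7.64% of all genes were higher. None of the 10 was at least 2-fold lower in either comparison, where 6.01% of all genes with DMSO and 7.64% with CH223191 were, and 3.22% in both. In either direction, 17.8% of all genes with DMSO and 19.2% with CH223191 were past 2-fold. The median log2 ratio of the members was 1.38 with DMSO and 1.05 with CH223191, and that of all genes was 0.01 in both. The members were chosen with earlier results of these data known, so the shares and medians of all genes are no independent comparison. By CPM, both 4T1-CM libraries lay above both normal-medium libraries for 7 members, against 34.6% of all genes, and below them for Mmp12 and Mmp19, against 33.1%. Timp2 was the remaining member.

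Among the collagenases, Mmp8 had the largest difference of the members. Mmp8, also called neutrophil collagenase, cleaves fibrillar collagens. It had 35, 21, 2142 and 759 reads, or 2.20, 1.32, 122 and 46.8 CPM. The log2 ratio of 4T1-CM to normal medium was 5.78 (5.32 to 6.33) with DMSO and 5.11 (4.52 to 5.85) with CH223191, which is 55.0-fold and 34.6-fold. Both 4T1-CM libraries were far above both libraries of normal medium, and they also differed from each other. Mmp13, a collagenase known from bone and cartilage, had 220, 158, 454 and 308 reads, or 13.8, 9.94, 26.0 and 19.0 CPM. Its log2 ratio of 0.91 (0.67 to 1.15) with DMSO and 0.93 (0.65 to 1.22) with CH223191 was below 2-fold in both, although both 4T1-CM libraries lay above both others.

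The gelatinase Mmp9, which cleaves denatured and basement membrane collagen, had 738, 822, 7606 and 7463 reads, or 46.3, 51.7, 435 and 460 CPM. Its log2 ratio to normal medium was 3.23 (3.12 to 3.34) with DMSO and 3.15 (3.05 to 3.26) with CH223191, or 9.38-fold and 8.88-fold. The libraries of each medium were close to each other, and those of the 2 media lay apart. Mmp14, the membrane-type enzyme that cleaves collagen at the cell surface and activates the precursor of Mmp2, had 954, 942, 13718 and 12429 reads, or 59.9, 59.3, 784 and 766 CPM. Its log2 ratio was 3.71 (3.62 to 3.81) with DMSO and 3.69 (3.60 to 3.79) with CH223191, or 13.1-fold and 12.9-fold. As for Mmp9, the level followed the medium and was nearly the same with DMSO and with CH223191.

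Mmp12, the macrophage metalloelastase, was among the most abundant transcripts of every library. It had 128630, 147853, 128174 and 110127 reads, or 8075, 9304, 7327 and 6784 CPM, and per kilobase of exon it ranked 23, 29, 30 and 34 among the genes kept. Its level was lower in 4T1-CM by a log2 ratio of -0.14 (-0.15 to -0.13) with DMSO and -0.46 (-0.47 to -0.44) with CH223191, both well under 2-fold. Mmp19, a secreted MMP of broad substrate range, had 2538, 3131, 1555 and 1679 reads, or 159, 197, 88.9 and 103 CPM. It was the member with the lowest ratios, -0.84 (-0.93 to -0.75) with DMSO and -0.93 (-1.02 to -0.84) with CH223191. In normal medium it stood above Mmp9 and Mmp14 per kilobase of exon, and in 4T1-CM below them.

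The inhibitors differed from each other. Timp1, a secreted inhibitor that also binds the precursor of Mmp9, had 25, 34, 815 and 666 reads, or 1.57, 2.14, 46.6 and 41.0 CPM. Its log2 ratio to normal medium was 4.86 (4.32 to 5.53) with DMSO and 4.24 (3.76 to 4.80) with CH223191, or 29.1-fold and 18.9-fold. The antisense neighbour Syn1 had fewer reads than Timp1 in 4T1-CM (244 and 198) and more in normal medium (141 and 142). Timp2, which takes part in the activation of the precursor of Mmp2 by Mmp14, had 16663, 14076, 17608 and 17896 reads, or 1046, 886, 1007 and 1102 CPM. Its log2 ratio was -0.06 (-0.09 to -0.02) with DMSO and 0.32 (0.28 to 0.35) with CH223191, and its libraries of the 2 media overlapped. Timp3, an inhibitor that stays bound to the matrix and also blocks Adam17, was at the edge of detection with 19, 12, 77 and 28 reads. Its log2 ratio was 1.86 (1.14 to 2.69) with DMSO and 1.16 (0.17 to 2.30) with CH223191, and the latter interval includes ratios under 2-fold.

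Adam8, a membrane-bound protease of myeloid cells that sheds cell surface proteins, had 15309, 19662, 28046 and 29971 reads, or 961, 1237, 1603 and 1846 CPM. Its log2 ratio was 0.74 (0.71 to 0.77) with DMSO and 0.58 (0.55 to 0.60) with CH223191, or 1.67-fold and 1.49-fold. Both 4T1-CM libraries were above both others, by less than 2-fold.

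**Figure D2:**
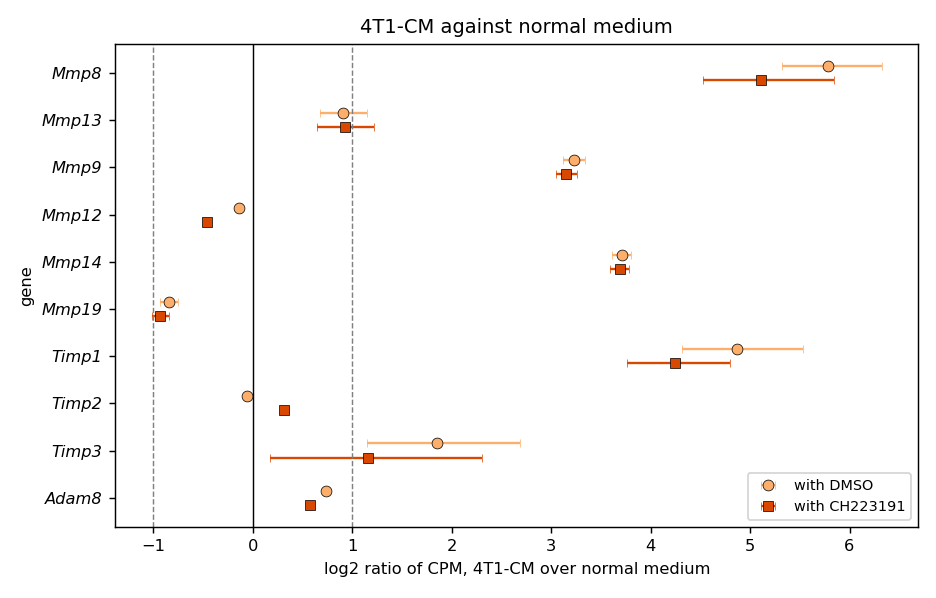
Log2 ratio of 4T1-CM to normal medium for each gene, with DMSO (circles) and with CH223191 (squares). Bars are exact 95% intervals for counting error and dashed lines mark 2-fold. Mmp8, Timp1, Mmp14 and Mmp9 lie between 3.15 and 5.78 in both comparisons, and Mmp19 lies at -0.84 and -0.93.

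An additive fit of edgeR over the 4 libraries, with medium and inhibitor as terms, gives the only test across libraries. For the medium term it takes the 2 inhibitor conditions as repeats of a medium. For the inhibitor term it takes the 2 media as repeats of an inhibitor condition. The study planned neither, and the fit leaves 1 residual degree of freedom. Its p-values do not measure the spread between cultures. For the medium term, 8 of the 10 members had an adjusted p under 0.05 by the quasi-likelihood test with Benjamini-Hochberg adjustment, against 32.6% of all genes. The 7 higher ones were Mmp8 (adjusted p = 1.78e-08), Mmp14 (2.55e-08), Mmp9 (6.31e-08), Timp1 (9.28e-08), Mmp13 (0.00136), Adam8 (0.00173) and Timp3 (0.0095) by this edgeR fit. Mmp19 was lower (adjusted p = 0.000394 in the edgeR fit). Mmp12 (0.0576) and Timp2 (0.475) did not pass in the same edgeR fit.

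The make-up of the protease transcripts differed with the medium more than their sum. The 6 MMPs took 0.857%, 0.948%, 0.875% and 0.81% of all counted reads. Mmp12 held 96.6% (96.5 to 96.7, exact Clopper-Pearson interval) of their reads in the DMSO library of normal medium, 96.7% in its CH223191 library, and 83.4% (83.2 to 83.6) and 82.9% in 4T1-CM. Mmp14 went with the medium from 0.717% and 0.616% to 8.93% and 9.36% of the reads of the 6, and Mmp9 from 0.554% and 0.538% to 4.95% and 5.62%. Among the 3 inhibitors, Timp2 held 99.7% of the reads in both libraries of normal medium and 95.2% and 96.3% in 4T1-CM, where Timp1 held 4.41% and 3.58%.

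Per kilobase of exon, the 5 MMPs other than Mmp12 had a summed level of 74.3 and 84.6 CPM (normal medium) and of 340 and 314 CPM (4T1-CM). The 3 inhibitors had a summed level of 270 and 230 CPM (normal medium) and of 311 and 329 CPM (4T1-CM). The ratio of these sums was 0.275 and 0.368 without 4T1-CM and 1.09 and 0.953 with it. With Mmp12 included the ratio was 4.40, 5.96, 4.34 and 3.80, so that the normal-medium library with DMSO and the 4T1-CM library with DMSO were close. These are ratios of transcripts per length and not of proteins or of active enzyme.

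**Figure D3:**
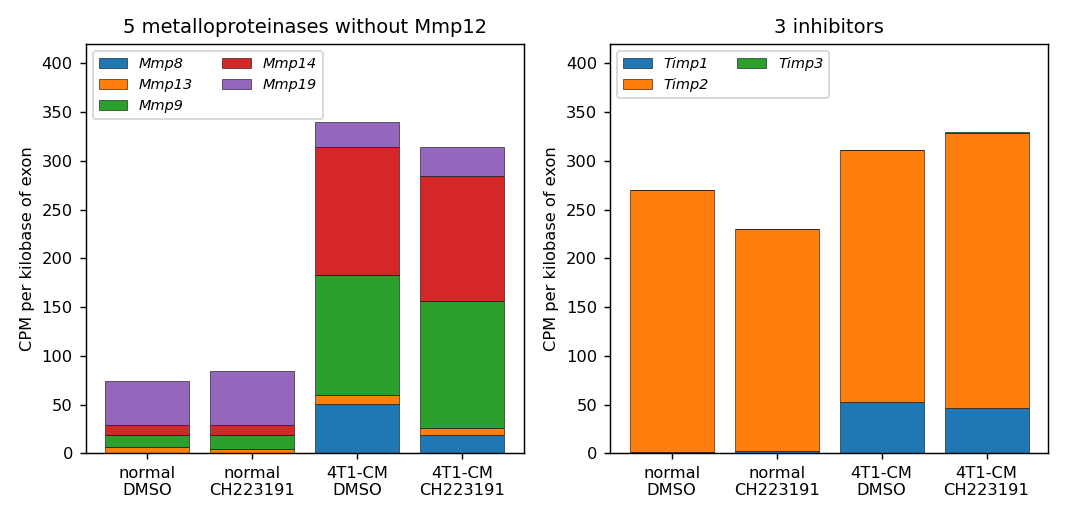
Summed level per library, in CPM per kilobase of exon, of the 5 MMPs other than Mmp12 (left) and of the 3 inhibitors (right). Each bar is 1 library and each color 1 gene. The sum on the left is 74.3 and 84.6 in normal medium and 340 and 314 in 4T1-CM, and on the right Timp2 makes up most of each bar, with Timp1 at 52.5 and 46.2 in 4T1-CM.

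The order of the levels per kilobase of exon began with Mmp12 in every library, from 937 to 1286 CPM. Timp2 (227 to 283) and Adam8 (207 to 398) followed, with Timp2 above Adam8 only in the DMSO library of normal medium. The order without 4T1-CM then ran through Mmp19, Mmp9, Mmp14, Mmp13, Timp1 and Mmp8 to Timp3. In 4T1-CM, Mmp14 (132 and 128), Mmp9 (123 and 130) and Timp1 (52.5 and 46.2) stood above Mmp19 (25.2 and 29.3). The counting intervals of neighbours overlapped for Timp1 and Mmp8 in both DMSO libraries, for Mmp13 and Timp1 with CH223191 in normal medium, and for Mmp9 and Mmp14 with CH223191 in 4T1-CM. Timp3 was last in each, at 0.0927 to 0.540 CPM per kilobase.

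Between CH223191 and DMSO, the differences of the members were under 2-fold except for 2 genes in 4T1-CM, Mmp8 and Timp3. These 2 genes had few reads in normal medium, where their counting intervals reached past 2-fold. In normal medium, none of the 10 members was 2-fold higher or lower, where 3.97% of all genes were higher and 2.64% lower, or 6.61% in either direction. In 4T1-CM, Mmp8 and Timp3 were at least 2-fold lower, where 2.44% of all genes were, and none of the members was 2-fold higher, where 2.55% were, or 4.99% of all genes in either direction. In both media together, none of the 10 was 2-fold lower, against 0.292% of all genes, and none was 2-fold higher, against 0.489%. The members had a median log2 ratio of 0.07 without 4T1-CM and of -0.07 with it. These comparisons use the same 4 libraries as those of the media.

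With 4T1-CM, Mmp8 had 122 CPM (117 to 128) with DMSO and 46.8 CPM (43.5 to 50.2) with CH223191, a log2 ratio of -1.39 (-1.51 to -1.27) or 2.62-fold lower. In normal medium its 35 and 21 reads gave a ratio of -0.72 (-1.59 to 0.09), which includes no difference. In the additive fit of edgeR, Mmp8 passed for the inhibitor term (adjusted p = 0.0357), 1 of 10 members and 1 of 11 genes, or 0.0802% of all genes. This term takes the media as repeats, although the interval in normal medium alone includes no difference. It does not measure the spread between cultures. The other 9 members had an adjusted p of 0.726 or more in this edgeR fit. Timp3 was lower in 4T1-CM with CH223191 by a ratio of -1.34 (-2.03 to -0.71), from 77 to 28 reads, and in normal medium by -0.64 (-1.84 to 0.46), from 19 to 12 reads. Mmp13 was lower with CH223191 in both media by about the same ratio, -0.47 (-0.78 to -0.17) without 4T1-CM and -0.45 (-0.67 to -0.24) with it.

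Mmp14 differed little, with ratios of -0.01 (-0.15 to 0.12) and -0.03 (-0.07 to 0.00), and the upper bound of the latter was just above 0. Mmp9 had 0.16 (0.01 to 0.30) and 0.08 (0.03 to 0.13). Adam8 was higher with CH223191 in both media, by 0.36 (0.33 to 0.40) and 0.20 (0.18 to 0.23), as was Mmp19, by 0.31 (0.23 to 0.38) and 0.22 (0.12 to 0.32). By CPM, 3 members were higher with CH223191 in both media, against 28.0% of all genes, and 4 were lower in both, against 25.8%. Timp1 had 0.44 (-0.34 to 1.25) without 4T1-CM and -0.18 (-0.33 to -0.03) with it. Mmp12 had 0.20 and -0.11, and Timp2 had -0.24 and 0.13.

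**Figure D4:**
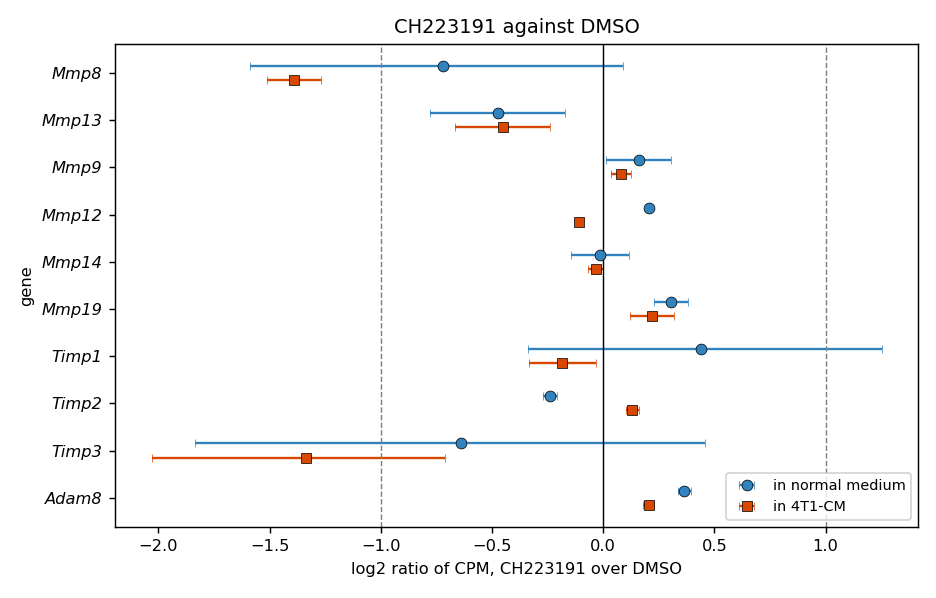
Log2 ratio of CH223191 to DMSO for each gene, in normal medium (circles) and in 4T1-CM (squares). Bars are exact 95% intervals for counting error and dashed lines mark 2-fold. Mmp8 at -1.39 and Timp3 at -1.34 in 4T1-CM lie past 2-fold, and the remaining points lie between -0.72 and 0.44.

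The response to 4T1-CM with CH223191 was set against that with DMSO for each member, as a difference of the 2 log2 ratios over all 4 libraries. It was -0.67 (-1.46 to 0.12) for Mmp8, -0.62 (-1.38 to 0.14) for Timp1 and -0.70 (-1.91 to 0.52) for Timp3, and each of these counting intervals includes 0. It was -0.08 (-0.23 to 0.07) for Mmp9 and -0.02 (-0.15 to 0.11) for Mmp14. Beyond counting error, the response was smaller with CH223191 for Adam8 (-0.16, from -0.20 to -0.12), further below 0 for Mmp12 (-0.32, from -0.33 to -0.30) and higher for Timp2 (0.37, from 0.33 to 0.42). Adam8, Mmp12 and Timp2 had at least 14076 reads in every library, where counting intervals are narrow. The share of all genes with a difference beyond counting error was not computed. With 1 library per condition these differences were not tested against the spread between cultures.

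Mmp8, Mmp12 and Mmp13 belong to a cluster of 10 MMP genes on chromosome 9, between 7272514 and 7699585. Mmp1a, Mmp1b, Mmp3, Mmp7 and Mmp20 had 0 reads in each library, which allows up to 0.171 to 0.189 CPM. Mmp10 had 1, 5, 8 and 6 reads. Mmp27, the neighbour of Mmp8, had 48, 43, 204 and 178 reads, a log2 ratio of 1.94 with DMSO and 2.01 with CH223191 to normal medium. Its ratio of CH223191 to DMSO in 4T1-CM was -0.09, beside -1.39 for Mmp8. The cluster thus held the most abundant MMP transcript, that of Mmp12, beside genes without a read, and Mmp1b, without a read, overlaps the end of Mmp12 on the opposite strand.

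**Figure D5:**
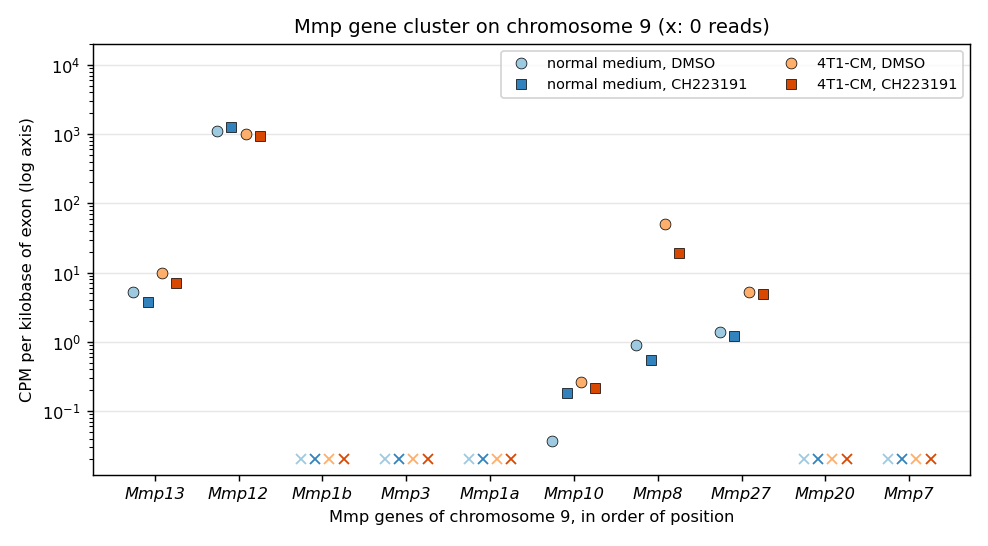
Level of the 10 MMP genes of chromosome 9 in order of position, in CPM per kilobase of exon on a log axis. Points are single libraries and crosses at the bottom mark 0 reads. Mmp12 lies between 937 and 1286, Mmp8 and Mmp27 are higher in both 4T1-CM libraries, and 5 genes have no read.

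Of the 17 other MMP genes, 5 passed the filter on low counts and 7 had 0 reads in each library. In 4T1-CM with DMSO 3 of the 5 were at least 2-fold higher, and with CH223191 4 were, against 11.8% and 11.6% of all genes, counting a gene at 3 reads or fewer as 3 reads. The gene called only with CH223191 was Mmp23, with 6, 3, 4 and 10 reads, which passed the filter only through the library where it was high, so that this call was set by the filter. Mmp2, a gelatinase whose precursor Mmp14 activates, had 11, 22, 124 and 101 reads, a log2 ratio of 3.30 with DMSO and 2.14 with CH223191. Mmp11 had 12, 13, 49 and 62 reads, with ratios of 1.85 and 2.18. Of 7 other inhibitors, 1 passed the filter, the membrane-anchored Reck, with 37, 46, 70 and 61 reads, and Timp4 had 0 reads in each library.

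Of 10 other ADAM proteases, 7 passed the filter and 0 were at least 2-fold changed in any of the 4 comparisons, where 17.8% and 19.2% of all genes were past 2-fold with 4T1-CM and 6.61% and 4.99% with CH223191. Adam17, which releases tumor necrosis factor from the cell surface, had 200, 163, 342 and 317 CPM, with log2 ratios to normal medium of 0.77 and 0.96. Adam9 had 110, 103, 164 and 167 CPM, and Adam10 had 139, 130, 155 and 156 CPM. Adam15 was lower in 4T1-CM, with 258, 237, 201 and 196 CPM and log2 ratios of -0.36 and -0.28. Of 19 ADAMTS proteases, 8 passed the filter, in 4T1-CM with DMSO 2 of them were past 2-fold higher and 1 past 2-fold lower, and with CH223191 3 and 1, where 11.8% and 11.6% of all genes were higher and 6.01% and 7.64% lower. Adamts6 (6, 4, 32 and 18 reads), Adamts7 (6, 3, 36 and 47 reads) and Adamts15 (20, 12, 1 and 3 reads) passed the filter only through the medium where they were high, which set their calls. The remaining call, with CH223191, was Adamts2, with 13, 7, 27 and 30 reads. Adamts1 had 67.0, 57.6, 63.6 and 56.4 CPM, and Adamts10 had 11.3, 13.3, 15.8 and 14.5 CPM.

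Of 13 genes for activation, docking and uptake of MMPs, 11 passed the filter and 1 was at least 2-fold higher in 4T1-CM in each comparison, beside the same 11.8% and 11.6% of all genes. Between the CH223191 libraries 1, Itgb3, was at least 2-fold lower in 4T1-CM, against 7.64% of all genes. The higher gene was Lcn2, whose product binds Mmp9, with 0 and 0 reads in normal medium and 326 and 232 reads in 4T1-CM. It passed the filter only through 4T1-CM, where it was high. Bsg, an inducer of MMPs, had 306, 371, 574 and 564 CPM, and Furin, a protease that activates the precursor of Mmp14, had 92.9, 92.8, 143 and 159 CPM. Lrp1, a receptor that takes up MMPs and their complexes with TIMPs, was lower in 4T1-CM, with 2583, 2459, 1810 and 1841 CPM, or log2 ratios of -0.51 and -0.42. Cd44, a surface receptor for Mmp9, had log2 ratios of -0.01 and 0.05. The tetraspanin Cd63, which binds Timp1, had 1564, 1549, 1054 and 921 CPM, and the tetraspanin Cd151 had 89.3, 124, 75.1 and 75.1 CPM. The integrin chain Itgav had log2 ratios of 0.04 and 0.57, and the convertase Pcsk7 of -0.20 in both. Itgb3, a partner of Mmp9 and other MMPs at the cell surface, had 67.8, 63.6, 34.9 and 31.8 CPM, with a log2 ratio of 4T1-CM to normal medium of -0.96 between the DMSO libraries and of -1.0003 between the CH223191 libraries, at the threshold.

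Mmp8, Timp1 and Mmp14 had the widest range of log2 CPM, and the genes most like each in pattern were taken from the 8323 other genes whose mean level reached 10 CPM, by the distance over the log2 ratios of the other 3 libraries to the DMSO library of normal medium. For Mmp8 they were Serpinb2 (distance 0.476, with 13, 6, 825 and 365 reads), Tlr2 (0.775, with 95, 68, 4404 and 3150 reads) and Cav1 (0.933). For Timp1 they were Mcemp1 (0.195), Slc36a2 (0.342) and Aoah (0.381). These 3 genes had 13 to 24 reads in the libraries of normal medium, and the counting error of the distances was not computed. For Mmp14 they were Egln3 (0.121, with 77, 79, 1094 and 1085 reads), Cd14 (0.267) and Ptges (0.286). A distance over 3 ratios of 4 libraries describes these libraries alone.

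Mmp8 and Mmp9 are also granule genes of neutrophils, and the collagenases, Mmp14, Mmp2 and the TIMPs are also expressed by fibroblasts. Of 12 neutrophil markers other than members, Ly6g, S100a9 and Retnlg had 0 reads in each library, and the sum of the 12 was 65.7, 74.1, 122 and 136 CPM. Most of it was Csf3r (58.3, 60.3, 86.9 and 108 CPM) and S100a8 (6.21, 12.0, 32.0 and 25.4 CPM). Of the 12, 4 passed the filter. Past 2-fold in 4T1-CM with DMSO, 2 of these 4 were higher and 1 was lower, where 11.8% and 6.01% of all genes were. With CH223191, 1 was higher and 1 lower, where 11.6% and 7.64% of all genes were. The lower one was Cxcr2, with 12, 9, 2 and 0 reads, which passed the filter only through normal medium. With CH223191 in 4T1-CM, where Mmp8 was lower, their sum was higher (136 against 122 CPM), through Csf3r (log2 ratio 0.32). S100a8 (-0.33) and Cebpe (-0.60, from 28 to 17 reads) were lower, and the median of the 4 that passed the filter was -0.17. The part of neutrophil transcripts in the level of Mmp8 was not tested. Of 8 fibroblast markers, 7 passed the filter. In 4T1-CM, 5 of these were at least 2-fold higher in each comparison, where 11.8% and 11.6% of all genes were. In each comparison 1 was lower, where 6.01% and 7.64% of all genes were. This was Postn, with 57, 39, 11 and 12 reads. The sum of the 8 was 68.6, 33.5, 157 and 135 CPM. Col1a2 had at most 63.9 CPM, and Lum had at most 3 reads. With CH223191 in normal medium 3 of the 7 that passed the filter were at least 2-fold lower, against 2.64% of all genes, and in 4T1-CM 0 were, against 2.44%. The part of fibroblast transcripts in the levels of the members was not tested. The summed markers of mesothelial cells, 4T1 epithelial cells, mast cells, B cells, T cells and dendritic cells were at most 2.46 CPM in any library, and those of eosinophils were 16.3, 14.4, 6.17 and 5.79 CPM, nearly all from Siglecf.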

How the data were processed

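RNA-seq was analysed in 4 libraries, 1 per combination of medium and inhibitor. The table deposited by the authors holds raw counts of reads per gene as whole numbers. The submitters' processing notes name HISAT2 2.0.5 and DESeq2. The counting tool, its strand setting and the build for these libraries are not given in the sources used here. The table gives gene length in bases, from which CPM per kilobase were computed. All 4 count columns were matched to a sample by name. Where several entries share a symbol, the one with most reads carries it, and the 103 others were kept under their identifiers.

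Libraries were scaled with TMM (edgeR 4.0.16, R 4.3.3). The filter on low counts required at least 10 reads in at least 1 library. Log2 ratios were taken with a prior count of 0.5, counts under 3 were set to 3 as the floor, and a gene at the floor in both libraries was given a ratio of 0. Intervals are exact 95% Clopper-Pearson intervals of the split of reads between 2 libraries, exact Poisson intervals for levels and, for differences of responses, normal intervals of log counts. The additive test was edgeR's quasi-likelihood test. As alternatives, scaling by DESeq2 1.42.0 or by total counts, other filters, only protein-coding genes, a prior of 5 reads and the additive fit were tried. Scripts were tested on simulated data and run with Python 3.11.15, numpy 2.4.6, pandas 2.3.3, scipy 1.17.1 and matplotlib 3.10.9.

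All members were named, together with lists of other MMPs, inhibitors, ADAM and ADAMTS proteases, genes of activation, docking and uptake, and cell type markers, with values for pathway genes of at least 10 CPM in a library. Values of lower genes (other MMPs, Reck, ADAMTS genes) and of single markers were chosen after they were seen. For the 3 members with the widest range, the 3 genes nearest in pattern were named. The members and lists were chosen with earlier results of these data known.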

Additional observations from a re-analysis of the deposited data

Results flagged for a closer look

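In 2 members, the 2 libraries with CH223191 lay on opposite sides of their DMSO libraries, beyond counting error in both media. The share of all genes with this pattern was not computed. By CPM, CH223191 lay above DMSO in each medium for 28.0% of all genes and below it in each for 25.8%. By the order of CPM alone, opposite sides were therefore not rare. These shares take no account of counting error and are no background for the pattern beyond it. Both members had at least 14076 reads in every library, where counting intervals are narrow. Mmp12 had a log2 ratio of CH223191 to DMSO of 0.20 (normal medium) and -0.11 (with 4T1-CM). For Timp2 the ratios were -0.24 without 4T1-CM and 0.13 with it. Timp2 also differed in the direction of its response to 4T1-CM, with a log2 ratio of -0.06 with DMSO and 0.32 with CH223191, which uses the same 4 libraries. These differences were not tested, since each condition has 1 library, and all are under 2-fold.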

How the results depend on the processing

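No paired analysis was possible because each condition has 1 library and the labels give no replicate numbers, and for the same reason no replicate could be left out. The 40 log2 ratios of the members were recomputed under 6 alternatives, and all 240 values kept their sign, with a largest change of 0.26, and of 0.06 without the prior count of 5. Of the 240, 11 lay outside the counting interval of the reported value, all of Mmp12, Timp2 or Adam8 under another scaling or filter, such as Timp2 between the DMSO libraries from -0.06 to -0.10 with total counts. The number of members at least 2-fold higher in 4T1-CM in both comparisons was 5, 4 with a prior count of 5, where Timp3 was under 2-fold with CH223191. The additive fit of edgeR counts by adjusted p and not by fold, and called 7 members higher, of which Mmp13 and Adam8 were under 2-fold. That fit called 1 member lower with CH223191, Mmp8, where the 2-fold rule in both media called 0. With total counts, the difference of the responses to 4T1-CM was -0.27 for Mmp12, 0.42 for Timp2 and -0.11 for Adam8, outside their counting intervals but with the same sign.

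The share of all genes past 2-fold depended on the filter, by its construction. With at least 10 reads in every library (11765 genes), 7.23% of genes were higher in 4T1-CM with DMSO and 7.39% with CH223191. For CH223191 it was then 1.92% higher and 0.756% lower in normal medium, and 0.705% and 0.45% in 4T1-CM. A prior count of 5 gave 2.33% and 1.20% in normal medium and 1.04% and 0.941% in 4T1-CM, and protein-coding genes alone gave 2.48% and 1.69%, and 1.20% and 1.61%. Depth limits the ratios of Mmp8, Timp1 and Timp3 to normal medium, where these genes had 12 to 35 reads.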
